A study of Mus musculus with 2 samples.

Results

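The SOX factors of the embryonic eye are described here across 16 cell classes and both Myrf genotypes. The members are 10 genes taken by symbol from the 32285 genes of the count tables: Sox2, its host transcript Sox2ot, Sox4, Sox6, Sox8, Sox9, Sox10, Sox11, Sox17 and Sox18. All 10 had UMIs in the cells kept. The study compared mice homozygous for a humanized Myrf allele that ends in a C-terminal variant with mice homozygous for the matched humanized wild-type allele, and asked how the variant affects eye development. Single cells of E17.5 eye cups were counted in 1 library labelled Myrf humWT/humWT and 1 labelled Myrf humdG/humdG, each a pool of 3 eye cups in the labels. In both alleles the last exon of mouse Myrf was replaced by the human exon, and the humdG allele in addition carries the C-terminal frameshift variant, in every cell of the animal and with no Cre. The labels say that cornea, lens and optic nerve were removed, whereas the methods of the study leave the cornea in place, and the protocol in the labels names conditional knockout animals that are not among these samples. Each genotype is therefore 1 sample with no replicate, no test between genotypes was possible, and all intervals are 95% intervals that cover counting error only.

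SOX proteins share a DNA-binding HMG box and are sorted into groups by the sequence of that box. SOX2, of the SOXB group, keeps neural and retinal progenitors in the progenitor state, whereas SOX4 and SOX11, of the SOXC group, act in newly formed neurons. SOX8, SOX9 and SOX10, of the SOXE group, act in glia, neural crest, pigment cells and, for SOX9, cartilage, where SOX6 of the SOXD group is its partner, and SOX17 and SOX18, of the SOXF group, act in the endothelium of blood vessels.

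The libraries held 129135207 UMIs in 17421 barcodes (humWT) and 114319529 UMIs in 19565 barcodes (humdG), and 102 barcodes occurred in both. After filters on genes, mitochondrial UMIs and doublet score, 16166 and 18173 cells were kept, with medians of 3785 and 2625 UMIs per cell. They formed 34 clusters, with the SOX genes left out of the genes used for clustering. Marker genes named 26 of these clusters in 15 classes, written with the ending "-like". One more cluster, whose first leading genes were Gm38505 (a noncoding RNA within the Sox2ot locus) and then Isl1 (a LIM homeobox gene of retinal neurons), is called the Isl1-led cluster and not ganglion cell-like, because it raised 10 of 12 markers of retinal ganglion cells but almost no Pou4f2, the factor that defines them. This cluster also raised 7 of 10 markers of amacrine and horizontal cells. The remaining 7 clusters stayed unnamed and held 32.7% of the humWT and 51.4% of the humdG cells, and between 3.82% (Sox18, humWT) and 48.8% (Sox6, humdG) of the UMIs of a member. No class was formed from the markers of retinal ganglion cells, optic nerve head and astrocytes, ciliary margin, lens or corneal stroma. A level is given as CPM, the share of a gene among all UMIs of a class, scaled to counts per 1000000 UMIs. Myrf in RPE-like cells was at 270 CPM (humWT) and 181 CPM (humdG). This does not check the labels, because both genotypes carry the humanized last exon and the counts do not tell the alleles apart. The paper describes the 3′ untranslated region of these alleles as endogenous in one place and as human in another.

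UMIs of SOX genes were also counted in cells that should not express them, as RNA that floats free in droplets gives. In red blood cell-like cells the levels in humWT and humdG were 8.68 and 27.8 CPM for Sox2, 98.1 and 30.4 CPM for Sox9, 109 and 136 CPM for Sox4, and 65.5 and 87.9 CPM for Sox11. Among the members with at least 20 UMIs there, this level differed between the libraries most for Sox9, by a log2 ratio of humdG to humWT of -1.69 (-2.25 to -1.17), and for Sox2, by 1.68 (0.83 to 2.56). Each member is therefore set beside its level in red blood cell-like cells, and Sox6, which red blood cell precursors express, beside white blood cell-like cells. A class is called above the blood level where its interval lay above that of the blood class in both libraries.

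Promoter sequences are shown for Sox2, Sox4 and Sox11, because their levels moved in opposite directions along the steps from progenitor to neuron. RefSeq promoters of GRCm38.p6 (250 bases before to 50 bases after the start) were on hand for 5 of the 10 members. Sox2 lies at chr3:34650405-34652461 on the plus strand of GRCm38, wholly inside Sox2ot (chr3:34104270-34682619, plus strand), in an intron, with 0 exonic bases shared. Sox4 (chr13:28948919-28953713) and Sox11 (chr12:27334264-27342574) lie on minus strands and have 1 exon each, as does Sox2. In the windows below, printed 5′ to 3′ along the gene, capitals mark matches to the motif CCAAT on either strand (which reads ATTGG on the other one). The core that SOX proteins bind, ACAAT, was searched in the same way (it reads ATTGT on the other strand), and no match to the one is a match to the other. The RefSeq start used for Sox2 lies before the GENCODE start of the locus given above.
Sox2 promoter, chr3:34649745-34650044, plus strand: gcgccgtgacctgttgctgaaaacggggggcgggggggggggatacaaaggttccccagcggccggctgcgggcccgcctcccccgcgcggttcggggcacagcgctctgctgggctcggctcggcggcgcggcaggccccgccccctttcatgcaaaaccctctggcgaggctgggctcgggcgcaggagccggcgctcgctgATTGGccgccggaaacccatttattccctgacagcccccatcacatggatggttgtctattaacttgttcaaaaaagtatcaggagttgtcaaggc
Sox4 promoter, chr13:28953650-28953949, minus strand: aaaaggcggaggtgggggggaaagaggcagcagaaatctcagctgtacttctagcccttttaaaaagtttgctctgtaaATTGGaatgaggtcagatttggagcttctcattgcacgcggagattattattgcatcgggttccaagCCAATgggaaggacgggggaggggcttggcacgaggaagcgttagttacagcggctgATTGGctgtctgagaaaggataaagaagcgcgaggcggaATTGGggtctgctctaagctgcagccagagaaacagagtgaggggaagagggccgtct
Sox11 promoter, chr12:27342669-27342968, minus strand: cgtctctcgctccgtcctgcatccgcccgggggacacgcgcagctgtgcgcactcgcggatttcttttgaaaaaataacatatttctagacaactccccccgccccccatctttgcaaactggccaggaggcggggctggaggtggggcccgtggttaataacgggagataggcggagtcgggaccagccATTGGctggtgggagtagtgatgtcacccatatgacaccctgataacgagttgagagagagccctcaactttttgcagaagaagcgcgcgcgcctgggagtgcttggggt
CCAAT on either strand was found at 4 places in the Sox4 window, at 1 in the Sox11 window and at 1 in the Sox2 window, and 37.4% of all 32851 RefSeq promoters of this length hold it. Counted from the start of transcription, the sites nearest to it began at -46 (Sox2), -8 (Sox4) and -60 (Sox11). ACAAT on either strand, which 31.0% of these promoters hold, was in none of these windows. The GC content was 66.3% for Sox2, 52.0% for Sox4 and 58.7% for Sox11, beside a median of 52.7% over all promoters. Sox8 was also lower in amacrine and horizontal-like than in progenitor-like cells, and its promoter, which is not shown, held no match to CCAAT.

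**Figure D1:**
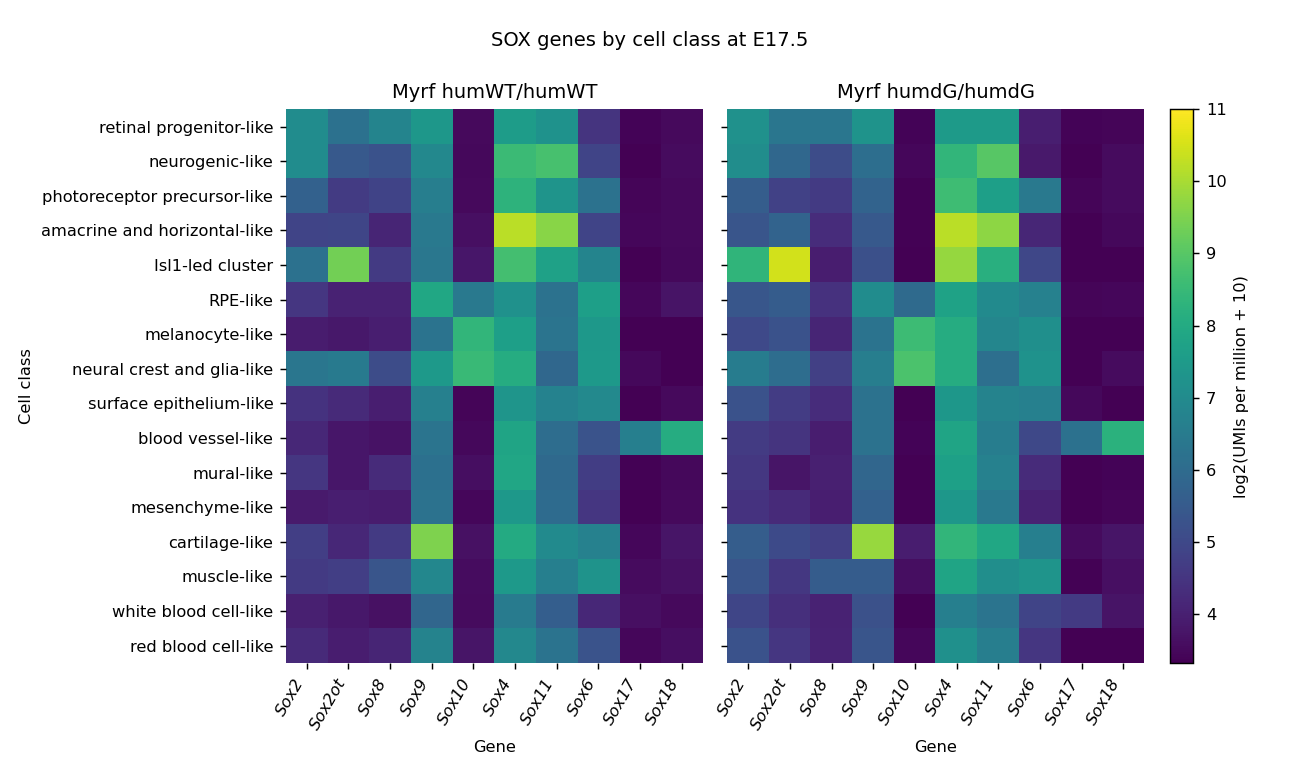
Levels of the 10 SOX genes (columns) in the 16 classes (rows) of each library, as log2(CPM + 10) in colour. Sox4 and Sox11 were highest in amacrine and horizontal-like cells, Sox2ot in the Isl1-led cluster, Sox9 in cartilage-like cells, Sox10 in melanocyte-like and neural crest and glia-like cells, and Sox17 and Sox18 in blood vessel-like cells.

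Sox2 was highest in retinal progenitor-like cells in humWT and in the Isl1-led cluster in humdG, and Sox2ot was highest in that cluster in both. In retinal progenitor-like cells Sox2 stood at 124 CPM (118 to 130) in humWT and 138 CPM (133 to 143) in humdG. Neurogenic-like cells, which are leaving the cell cycle, were at 122 and 125 CPM. Their log2 difference from progenitor-like cells was -0.02 (-0.18 to 0.14) in humWT and -0.14 (-0.26 to -0.03) in humdG. The level fell to 42.0 and 37.7 CPM in photoreceptor precursor-like cells and to 19.9 and 31.0 CPM in amacrine and horizontal-like cells. The last was a log2 difference from progenitor-like cells of -2.63 (-3.03 to -2.26) in humWT and -2.15 (-2.38 to -1.93) in humdG. Where another clustering placed the Isl1-led cells among the amacrine and horizontal-like cells, the mean of these differences over both libraries was -1.38 to -1.27, in place of -2.39. In humdG the Sox2 intervals of photoreceptor precursor-like and of amacrine and horizontal-like cells overlapped that of red blood cell-like cells (19.0 to 39.3 CPM). Neither class was therefore above the blood level for Sox2. A Sox2 UMI was found in 58.0% and 62.3% of progenitor-like cells (medians of 9549 and 9419 UMIs per cell) and in 3.77% and 11.03% of red blood cell-like cells (medians of 3954 and 3992 UMIs). After each cell was thinned to 1000 UMIs, the shares in progenitor-like cells were 10.7% and 11.6%. Outside the retina, neural crest and glia-like cells held Sox2 at 71.1 and 83.7 CPM, in 50 and 39 cells.

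Sox2ot, a long noncoding transcript whose locus contains Sox2, was at 646 CPM (593 to 704) in the humWT and 1418 CPM (1355 to 1483) in the humdG cells of the Isl1-led cluster. The next class was neural crest and glia-like in humWT (77.8 CPM) and retinal progenitor-like in humdG (71.5 CPM). The cluster thus held 70.0% and 77.8% of the summed class CPM of Sox2ot, where 8.9% (humWT) and 8.47% (humdG) of all genes with at least 100 UMIs had 50% or more in 1 class. It held 18.1% and 26.4% of all Sox2ot UMIs in 76 and 160 cells. Those UMIs lay in a part of the cluster. In humWT 20 of 76 cells had any Sox2ot UMI, with up to 51 in a cell, and 15 had at least 10. In humdG 83 of 160 cells had one, with up to 115 in a cell, and 55 had at least 10. In the cells with a Sox2ot UMI its level was 2384 CPM in humWT and 2287 CPM in humdG, but these cells were chosen by their Sox2ot counts. They made up 26.3% of the humWT and 51.9% of the humdG cells, and 18.4% and 38.1% of the cells had a Sox2ot UMI after thinning to 1000 UMIs. The cluster stood alone only with the settings used here. Under 5 other clusterings between 232 and 236 of its 236 cells stayed together in a wider cluster of neurons, which held up to 553 humWT and 923 humdG cells. There the log2 ratio of humdG to humWT was 0.86 to 1.07 for Sox2ot, and the highest humdG level was 532 CPM.

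The cells with a Sox2ot UMI, a subset chosen after its values were seen, differed from the others of the cluster in more genes. All 28 humWT and all 55 humdG UMIs of Chat, the enzyme that makes acetylcholine, and all 12 and 38 UMIs of Slc18a3, its vesicular transporter, lay in them. Gm38505, a long noncoding RNA on the opposite strand within Sox2ot (chr3:34298172-34351712), had all of its 159 and 555 UMIs there. Gm38505 was not among the genes left out of the clustering, and it was the first of the leading genes of this cluster. Megf10, a surface receptor of starburst amacrine and horizontal cells, was at 608 and 589 CPM in these cells and at 124 and 129 CPM in the other cells of the cluster. Lhx1, a factor of horizontal cells, went the other way, with 63.1 and 40.8 CPM against 282 and 272 CPM. Not every gene differed in the same direction in both libraries. Megf11 was at 446 CPM in humWT cells with a Sox2ot UMI and 252 CPM in the others, but at 278 and 370 CPM in humdG. Tfap2b was at 397 and 454 CPM in humWT, but at 971 and 604 CPM in humdG. Isl1 was at 581 and 1211 CPM in the cells with a Sox2ot UMI and at 77.1 and 157 CPM in the others. The former had medians of 7533 and 9512 UMIs per cell, and the latter 7732 and 4688. Sox2 was at 189 and 492 CPM in the cells with a Sox2ot UMI and at 16.8 and 23.5 CPM in the others. Over the whole cluster Sox2 was at 63.5 CPM (47.5 to 83.3) in humWT and 314 CPM (285 to 346) in humdG, a log2 ratio of 2.31 (1.89 to 2.75), and 1 humWT cell held 34.6% of the humWT UMIs. In the wider clusters that took in these cells under the other clusterings, the Sox2 ratio was 1.59 to 1.91. Both UMIs were found together in 9 humWT and 59 humdG cells, Sox2 alone in 9 and 11, and Sox2ot alone in 11 and 24. Outside the named classes, an unnamed cluster led by Nrxn3 and Dscam held Sox2ot at 83.0 and 223 CPM, a log2 ratio of 1.43 (1.22 to 1.64). Counts of Sox2ot could include reads of unspliced RNA, since whether introns were counted is not given in the sources used here.

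Sox4 and Sox11, whose proteins switch on genes of young neurons, rose from progenitor-like to neuron-like classes. Sox4 was at 179 CPM (172 to 187) in humWT and 170 CPM (165 to 176) in humdG retinal progenitor-like cells and at 1176 CPM (1137 to 1215) and 1179 CPM (1150 to 1208) in amacrine and horizontal-like cells. This was a log2 difference of 2.71 (2.64 to 2.79) in humWT and 2.79 (2.73 to 2.85) in humdG. Sox11 was at 142 CPM (135 to 148) and 173 CPM (167 to 178) in progenitor-like cells, and at 785 CPM (754 to 818) and 821 CPM (797 to 845) in amacrine and horizontal-like cells, a log2 difference of 2.47 and 2.25. The genes differed in the step between. In neurogenic-like cells Sox11 was already second among all classes, at 429 and 502 CPM, whereas Sox4 was at 370 and 320 CPM, below the Isl1-led cluster with 409 and 878 CPM, although in humWT the intervals of these classes overlapped. In photoreceptor precursor-like cells Sox4 was at 304 and 383 CPM and Sox11 at 146 and 192 CPM. In humWT the interval of Sox11 in photoreceptor precursor-like cells overlapped that in progenitor-like cells.

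Both genes were found in the same amacrine and horizontal-like cells in most cases. UMIs of both were present in 286 of 487 humWT and 583 of 833 humdG cells, Sox4 alone in 94 and 129, Sox11 alone in 40 and 73, and neither in 67 and 48. The class is made of 2 clusters, cluster 11 of 439 and 742 cells and cluster 29 of 48 and 91. Sox4 was at 1180 and 1186 CPM in cluster 11 and at 1112 and 1080 CPM in cluster 29. Sox11 was lower in cluster 11, at 764 and 812 CPM, than in cluster 29, at 1091 and 957 CPM. Between genotypes, amacrine and horizontal-like cells had log2 ratios of 0.00 (-0.06 to 0.06) for Sox4 and 0.06 (-0.01 to 0.14) for Sox11. In 99.1% and 87.9% of the genes with at least 20 UMIs in this class the ratio was at least as far from 0. Neither gene was absent from any class. The lowest levels of Sox4, 81.4 and 88.6 CPM, were in white blood cell-like cells, and 36.4% and 42.6% of red blood cell-like cells had a Sox4 UMI, so low levels elsewhere cannot be read as expression.

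**Figure D2:**
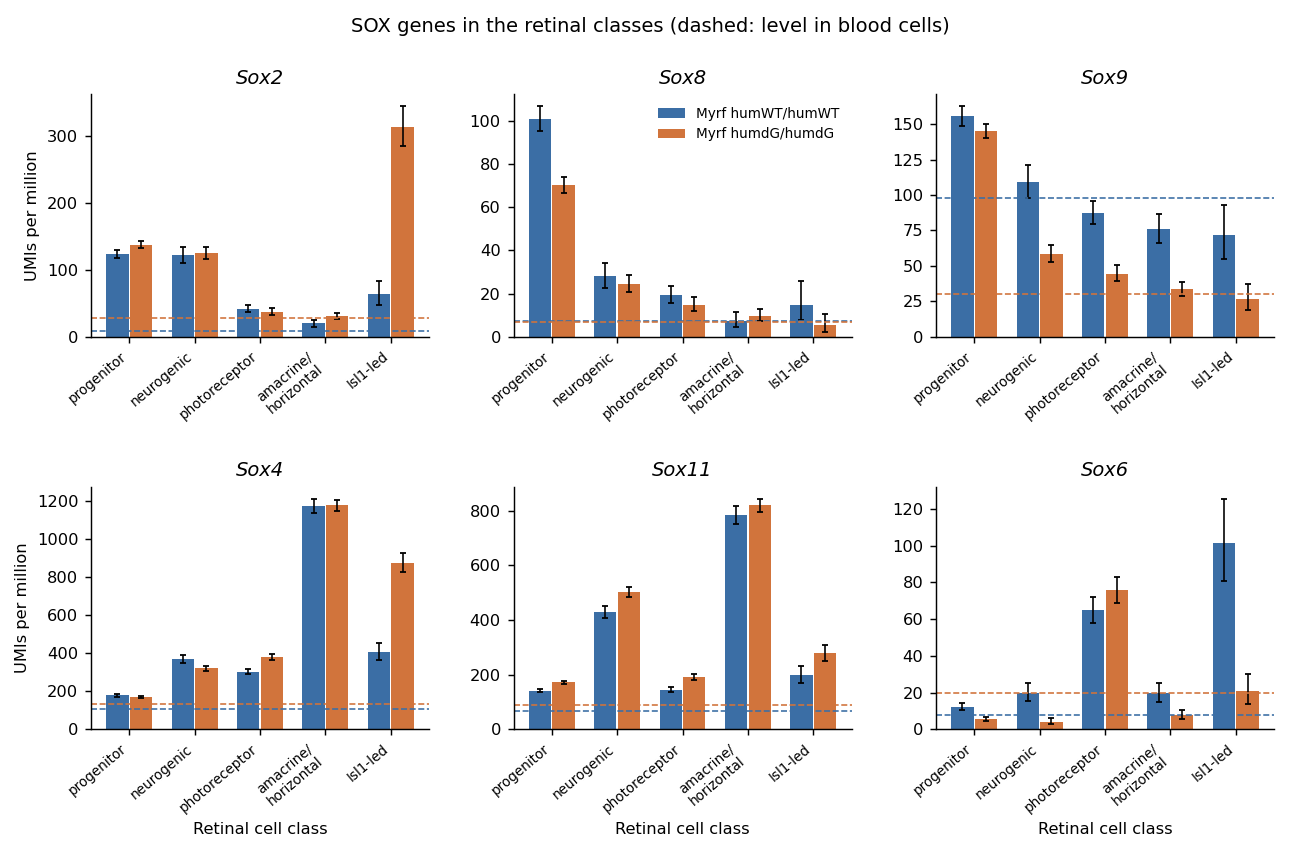
CPM (vertical axes, from 0) of 6 SOX genes in the 5 retinal classes of humWT (blue) and humdG (orange). Error bars are exact 95% Poisson intervals of the summed counts, and dashed lines give the level in red blood cell-like cells (for Sox6 in white blood cell-like cells, where 1 humdG cell holds 31 of 35 UMIs). Sox2, Sox8 and Sox9 were lower in amacrine and horizontal-like than in progenitor-like cells and Sox4 and Sox11 were higher.

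Among the classes, Sox8, a SOXE gene, had its highest level in retinal progenitor-like cells in both libraries. It was at 101 CPM (95.5 to 107) in humWT and 70.3 CPM (66.8 to 73.9) in humdG, a log2 ratio of -0.52 (-0.63 to -0.42), or 1.44-fold lower. The ratio was -0.55 in the cluster of this class led by histone genes and -0.52 in the one led by Hes5. A UMI was found in 56.7% (53.8 to 59.5) and 43.2% (41.1 to 45.2) of the cells, and in 10.97% and 6.03% after thinning each cell to 1000 UMIs. Red blood cell-like cells were at 7.38 and 6.96 CPM, with an interval of the ratio from -1.51 to 1.21. Of the 15380 genes with at least 20 UMIs in progenitor-like cells, 16.7% had a ratio as far from 0, a share that places Sox8 among many genes with ratios of this size. 2810468N07Rik, an antisense RNA chr17:25570358-25575043, whose locus overlaps the start of Sox8 (chr17:25565892-25570686, minus strand), was at 41.0 and 27.9 CPM in the same cells, a log2 ratio of -0.55 (-0.73 to -0.38). If reads were counted without regard to strand, those from the stretch that such partner loci share could not be told apart. Outside the named classes, an unnamed cluster led by Tafa1 and Hs3st4 raised 6 of 10 markers of retinal progenitors. It held Sox8 at 86.8 and 74.1 CPM, a ratio of -0.23 (-0.46 to 0.00). Over all cells kept, of which 7.40% and 12.3% were progenitor-like, Sox8 was at 23.2 CPM in humWT and 30.9 CPM in humdG. Sox8 was near the blood level in amacrine and horizontal-like cells, at 7.44 and 9.80 CPM. Second to the progenitor-like cells came muscle-like cells, at 30.3 and 37.1 CPM, where the cluster led by Myog was at 43.3 and 43.6 CPM and the cluster of muscle fibres led by Ttn at 16.4 and 21.03 CPM.

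Sox9, which drives cartilage formation and is also a gene of retinal progenitors and of the RPE, was highest in cartilage-like cells. It stood there at 722 CPM (695 to 750) in humWT and 896 CPM (820 to 977) in humdG. RPE-like cells followed in humWT with 227 CPM, and retinal progenitor-like cells in humdG with 145 CPM. In progenitor-like cells the log2 ratio of humdG to humWT was -0.10 (-0.19 to -0.02). In RPE-like cells Sox9 was at 227 CPM (214 to 242) and 124 CPM (112 to 138), a ratio of -0.87 (-1.05 to -0.69), beside -1.69 in red blood cell-like cells. Within the RPE-like class, the ratio was -1.37 (-1.63 to -1.11) in cluster 13, whose cells had medians of 3057 and 2087 UMIs, -0.44 (-0.71 to -0.18) in cluster 30 with medians of 24028 and 19777 UMIs, and -0.39 (-1.67 to 0.68) in cluster 32. In amacrine and horizontal-like cells it was at 75.7 and 33.8 CPM, a ratio of -1.17, and in humWT this lay below the 98.1 CPM of red blood cell-like cells. The cartilage-like cluster, with the highest Sox9, had 1232 humWT and 115 humdG cells, and the part of free RNA in the Sox9 ratios of other classes was not tested.

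The size of the Sox9 difference in cartilage depended on which cells were counted as cartilage. An unnamed cluster of 348 and 115 cells, led by Hpse2 and Wif1, held Sox9 at 159 CPM in humWT and 682 CPM in humdG, a log2 ratio of 2.10 (1.96 to 2.23). With both clusters counted together Sox9 was at 437 and 722 CPM, a ratio of 0.72 (0.65 to 0.80), against 0.31 (0.17 to 0.45) in the cartilage-like cluster alone. With only the cells of at least 2000 UMIs the latter was 0.47, and in the cartilage-like classes of the other clusterings it reached 1.16. Genes that SOX9 acts on with SOX5 and SOX6 were also counted, and some of them were recounted with this cluster added. In the cartilage-like cluster 10 of 11 were counted and 7 were over 2-fold lower in humdG, with a median log2 ratio of -1.09 beside 0.20 over all 11213 genes counted, 14.5% of which passed 2-fold in either direction. The lowest ratio among those with UMIs in both libraries was that of Col11a2, -3.23, with 240 and 4 UMIs, and the highest that of Col9a3, -0.53. Matn1 had 46 and 0 UMIs, at least 2.40-fold lower. Of this list, only Acan, Col2a1, Cnmd and Col9a1 were recounted with the unnamed cluster added. Col11a2, Matn1 and the other genes of the list were not. With the unnamed cluster added, Acan, the core protein of cartilage proteoglycan, had a ratio of 0.46 in place of -1.41, and Col2a1, the main collagen of cartilage, 0.43 in place of -0.80. Cnmd, which encodes chondromodulin, stayed lower in humdG, at -0.38 (-0.58 to -0.18) in place of -2.30, and Col9a1, a chain of collagen IX, was at 0.10 (-0.04 to 0.24) in place of -1.02.

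Sox10, a factor of neural crest, Schwann cells and melanocytes, was confined to 3 classes above the blood level. Neural crest and glia-like cells held it at 362 CPM (324 to 404) in humWT and 447 CPM (396 to 502) in humdG, and cluster 28, which is melanocyte-like, is led by Dct and Cck and raised 5 of 10 RPE markers, at 321 CPM (295 to 348) and 374 CPM (336 to 415). The former was higher by a log2 difference of 0.18 (-0.03 to 0.37) in humWT and 0.26 (0.03 to 0.49) in humdG. RPE-like cells were at 76.1 CPM (68.3 to 84.5) and 53.2 CPM (44.9 to 62.5), and red blood cell-like cells at 3.47 and 0.870 CPM. Surface epithelium-like cells had 1 Sox10 UMI in humWT and 0 of 139 cells in humdG, which allows a share of cells with a UMI of up to 2.16% if a count of 0 is taken to allow 3 cells, or 2.62% by the Clopper-Pearson interval. The log2 ratio was 0.30 (0.07 to 0.54) in neural crest and glia-like cells, 0.22 (0.02 to 0.42) in cluster 28 and -0.52 (-0.81 to -0.24) in RPE-like cells. In the RPE-like class it was -0.95 in cluster 13, -0.21 (-0.60 to 0.16) in cluster 30 and 0.37 (-0.79 to 1.38) in cluster 32. Of the 14 SOXE targets listed, 9 were counted in cluster 28 and 0 passed 2-fold, where 7.57% of all genes did. Their ratios ran from -0.26 for Cdh19, a cadherin of Schwann cell precursors, to 0.91 (-0.27 to 2.08) for Foxd3, a factor of neural crest with 14 UMIs in each library.

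Within the neural crest and glia-like cluster the SOXE genes were mixed. In humWT 12 of 50 cells had UMIs of both Sox9 and Sox10, 28 of Sox10 alone, 10 of Sox9 alone and 0 of neither. In humdG these were 10, 18, 8 and 3 of 39 cells. Sox2 and Sox10 were found together in 11 and 15 cells, and Sox8 was low, at 24.4 and 17.4 CPM.

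**Figure D3:**
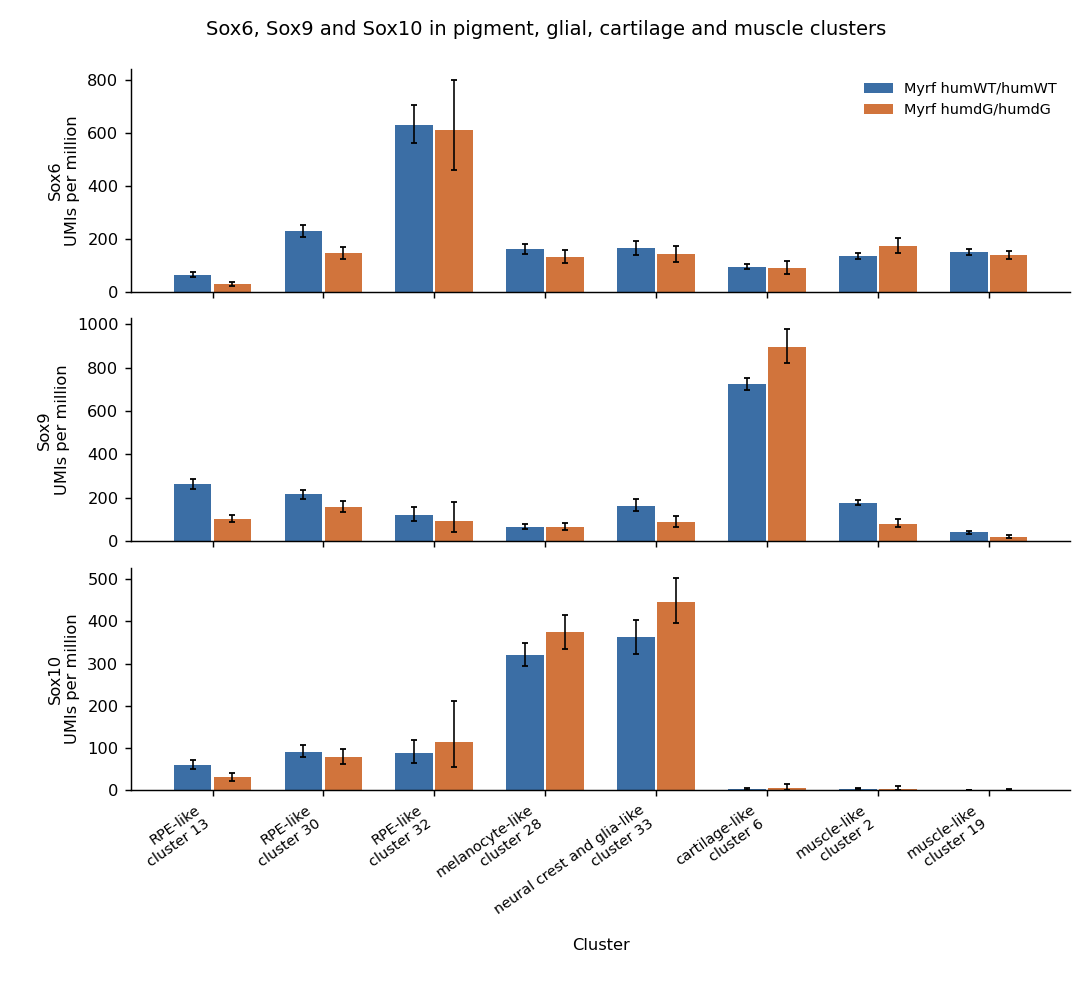
CPM (vertical axes, from 0) of Sox6, Sox9 and Sox10 in single clusters of the RPE-like, melanocyte-like, neural crest and glia-like, cartilage-like and muscle-like classes, with exact 95% Poisson intervals. Sox6 was highest in RPE-like cluster 32, at 631 CPM in humWT and 613 CPM in humdG, and Sox10 in clusters 28 and 33.

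Sox6, which has no activation domain of its own and acts with other factors, was spread over the pigment cell, glial, muscle, cartilage and surface classes. No class led clearly: RPE-like cells were first in humWT at 194 CPM (181 to 207) and muscle-like cells in humdG at 148 CPM (135 to 161), and neural crest and glia-like cells were second in both, at 164 CPM (139 to 193) and 142 CPM (114 to 175). Cluster 28, melanocyte-like, was at 160 and 133 CPM, and cartilage-like cells at 93.8 and 89.1 CPM. With the unnamed cluster led by Hpse2 and Wif1 added, the cartilage-like cells were at 61.1 and 178 CPM for Sox6. This was a log2 ratio of 1.55 (1.36 to 1.73) in place of -0.07 (-0.53 to 0.35). Outside the named classes, Sox6 was at 207 CPM in humWT and 140 CPM in humdG in the unnamed cluster led by Nrxn3 and Dscam. In the one led by Hpse2 and Wif1 it was at 29.3 and 199 CPM. Of the retinal classes photoreceptor precursor-like cells were above the blood level, at 64.9 and 75.7 CPM. The Isl1-led cluster, at 101 and 20.8 CPM, was above that level only when the white blood cell with most Sox6 UMIs was left out. RPE-like cells had a log2 ratio of -1.03 (-1.23 to -0.83), or 2.04-fold lower in humdG. The clusters of this class differed. Cluster 32, led by Ankfn1 and Otx2os1, was at 631 CPM in humWT and 613 CPM in humdG, a ratio of -0.04 (-0.49 to 0.38), but had 74 and 16 cells. Cluster 30, led by Ttr, was at 229 and 146 CPM, a ratio of -0.65 (-0.92 to -0.39), and cluster 13, led by Krt18, at 64.8 and 29.0 CPM, a ratio of -1.16 (-1.68 to -0.67). In white blood cell-like cells Sox6 was at 8.001 CPM in humWT and 19.5 CPM in humdG, but 31 of the 35 humdG UMIs came from 1 cell, without which the level was 2.28 CPM. In neurogenic-like cells it was at 19.8 and 4.24 CPM and in retinal progenitor-like cells at 12.4 and 5.57 CPM, ratios of -2.23 and -1.15 at levels near those of the blood classes.

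Sox6 and Sox10 were found in the same cells of cluster 28: both in 53 of 100 humWT and 29 of 64 humdG cells, Sox10 alone in 10 and 11, and Sox6 alone in 7 and 1. In cartilage-like cells Sox6 and Sox9 were both found in 230 of 1232 and 18 of 115 cells, and Sox9 alone in 762 and 58. Sox6 spans chr7:115470872-116038796, and the RNAs on its opposite strand had few counts, with 170 UMIs of Gm45025 and 118 of Sox6os in all barcodes of both libraries.

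Sox17 and Sox18, SOXF factors of endothelium, were limited to the blood vessel-like class. Sox18 was at 261 CPM (250 to 272) in humWT and 287 CPM (269 to 305) in humdG, which was 91.5% and 94.0% of its summed class CPM, and Sox17 at 88.9 CPM (82.5 to 95.7) and 62.3 CPM (54.2 to 71.3), 88.9% and 75.7%. No other class exceeded 3.56 CPM for Sox18. For Sox17 white blood cell-like cells came second in humdG at 14.5 CPM, but 23 of their 26 UMIs were in the same cell that held the Sox6 UMIs, and the level without it was 1.71 CPM. The class is made of 2 clusters of different depth. Cluster 23, led by Flt1, with medians of 16365 and 14196 UMIs per cell, was at 105 and 72.2 CPM for Sox17 and 305 and 344 CPM for Sox18, whereas cluster 16, led by Cd93 and Mecom, with medians of 3258 and 1978 UMIs, was at 21.6 and 22.3 CPM and at 71.4 and 54.9 CPM. The log2 ratio in the class was -0.51 (-0.74 to -0.29) for Sox17, where 1 humdG cell held 23.7% of the UMIs. It was 0.14 (0.03 to 0.25) for Sox18, where 1 humdG cell held 14.7% of the humdG UMIs. The humWT cell with most Sox18 UMIs held 4.51%. UMIs of both genes were found in 100 of 639 humWT and 46 of 386 humdG cells, of Sox18 alone in 179 and 85, and of Sox17 alone in 27 and 14. All 10 SOXF endothelial genes listed were counted in this class and 0 passed 2-fold, where 7.01% of all genes did. They ran from Vcam1, an adhesion molecule, at -0.66 (-1.59 to 0.18) to Kdr, the main receptor of VEGF, at 0.25 (0.18 to 0.32).

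**Figure D4:**
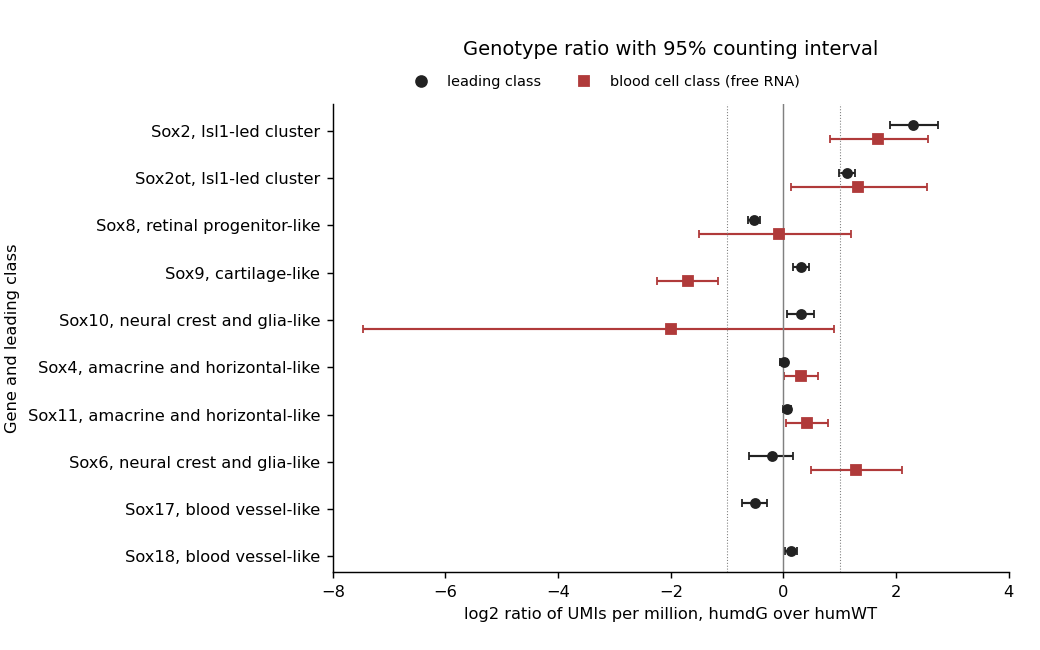
Log2 ratio of CPM in humdG over humWT (horizontal axis) with exact 95% conditional binomial intervals, for each SOX gene in the class with its highest mean level (circles) and in its blood cell class (squares; Sox17 and Sox18 had 0 humdG UMIs there). Sox2 and Sox2ot in the Isl1-led cluster were past 2-fold (dotted lines), and the other 8 genes were not. For Sox2 this class had the highest mean through its humdG level of 314 CPM, beside 63.5 CPM in humWT. Retinal progenitor-like cells, the highest class for Sox2 in humWT, were at 124 CPM in humWT and 138 CPM in humdG.

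Between genotypes, 112 pairs of a SOX gene and a class had at least 20 UMIs over both libraries and at least 50 cells in each. Of these 21 were over 2-fold higher and 13 over 2-fold lower in humdG. Over all genes, 2.85% of 184357 such pairs were over 2-fold higher and 5.53% over 2-fold lower. The pairs past 2-fold lay mostly where the SOX gene was not above the blood level. Among the 41 pairs above that level in both libraries, 5 passed 2-fold, and among the other 71, 29 did. The 5 pairs were Sox2, Sox2ot and Sox4 in the Isl1-led cluster, Sox2ot in amacrine and horizontal-like cells, all higher in humdG, and Sox6 in RPE-like cells, lower in humdG. Sox2ot in amacrine and horizontal-like cells was at 20.3 CPM in humWT, where 1 cell held 51.7% of the UMIs, and 43.9 CPM in humdG. Sox4 in the Isl1-led cluster was at 409 and 878 CPM, a log2 ratio of 1.10 (0.92 to 1.28). In the wider clusters that held these cells under the other clusterings, this Sox4 ratio was 0.13 to 0.70. Sox2 alone gave 9 of the 34 pairs, all higher in humdG, and 8 of these were in classes not above the blood level. Sox9 gave 4, all lower in humdG and not above it. With white blood cell-like cells taken without the cell that held 31 Sox6 UMIs, Sox6 was above the blood level in 9 in place of 6 classes, and 3 in place of 1 of them passed 2-fold, all lower in humdG.

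**Figure D5:**
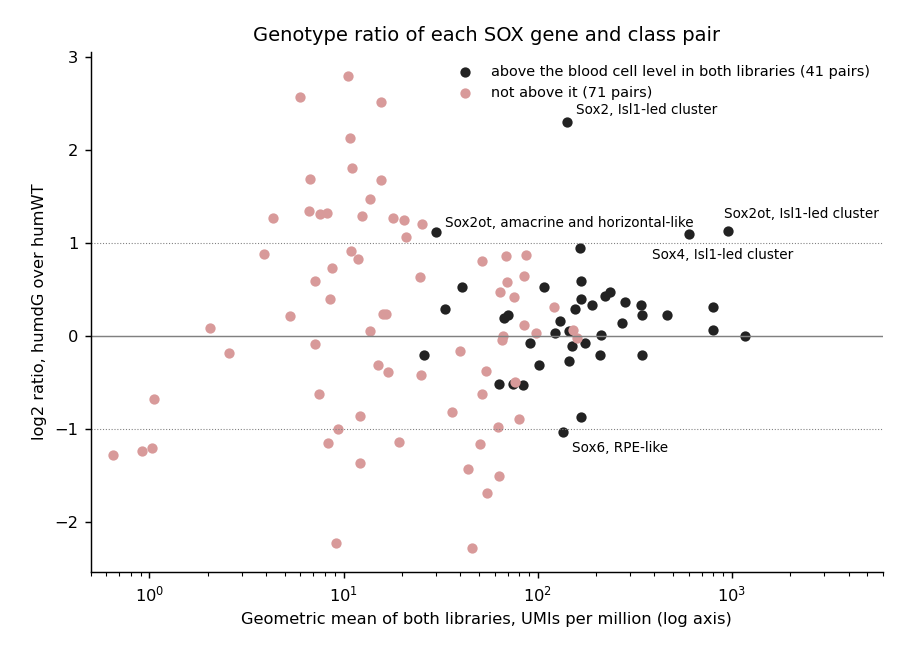
Log2 ratio of humdG to humWT (vertical axis) against the geometric mean level of both libraries in CPM (horizontal log axis) for the 112 pairs of a SOX gene and a class. The 41 pairs above the blood cell level in both libraries (black) lay mostly between the dotted lines of a 2-fold ratio, and the 5 that did not are named; 29 of the 71 other pairs (pink) lay outside them.

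Other genes of the same programmes were counted in both ends of this series of retinal classes. In retinal progenitor-like cells, 11 of 11 genes listed as partners of SOX2 were counted and 0 passed 2-fold, where 6.8% of all genes did. Their median log2 ratio was 0.14, beside -0.03 over all genes counted. They ran from Nes, an intermediate filament of progenitors, at -0.50 (-0.70 to -0.29) to Hes1, a target of Notch, at 0.49 (0.45 to 0.54). In amacrine and horizontal-like cells, 10 of 10 SOXC neuronal genes were counted and 2 were over 2-fold higher in humdG, where 8.6% of all genes passed 2-fold in either direction. The median log2 ratio of the list was 0.51, beside 0.02 over all genes counted. The 2 genes past 2-fold were Isl1, at 19.3 and 55.2 CPM with a ratio of 1.52 (1.11 to 1.95), and Pou4f2, with 10 and 42 UMIs and a ratio of 1.17 (0.16 to 2.33). The lowest was that of Dcx, a microtubule protein of young neurons, at 0.12 (-0.21 to 0.46). Pou4f2 was low, over both libraries together at 6.06 CPM in cluster 11 and 7.35 CPM in cluster 29 of this class. It was at 2.03 CPM in red blood cell-like cells and 9.25 CPM in the Isl1-led cluster.

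SOX genes that are no members were measured in the same classes. Sox7, the remaining SOXF gene, was at 137 and 127 CPM in blood vessel-like cells and at most 3.65 CPM in any other class. Sox5, the partner of Sox6, was highest in neural crest and glia-like cells at 338 and 406 CPM, with cartilage-like cells second at 236 and 274 CPM. Sox3, a SOXB gene, was highest in retinal progenitor-like cells at 17.6 and 12.4 CPM. Sox12, the remaining SOXC gene, was highest in the Isl1-led cluster at 56.2 and 79.7 CPM, with 46 UMIs there in humWT. Photoreceptor precursor-like cells were second for Sox12 at 53.1 and 58.3 CPM, and its first class held 12.0% and 14.8% of its summed class CPM. Sox13 was highest in blood vessel-like cells at 45.6 and 39.9 CPM. Sox14, absent from most classes, had 10 and 62 UMIs in neurogenic-like cells, 3.01 and 9.74 CPM. Sox30 stayed at or below 5.97 CPM in every class, and Sox1, Sox15 and Sox21 had at most 46 UMIs each in all cells kept.

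The pattern of each member over the 16 classes of both libraries, 32 points of log2(CPM + 10), was compared with those of 17333 other genes with at least 100 UMIs. These correlations describe the pattern only, since the points share libraries and depth. The genes most like Sox18 were Myct1 (Pearson r = 0.995), Gpihbp1 (0.994) and Lhx6 (0.993), and those most like Sox17 were Syt15 (0.984), Gimap1 (0.982) and Mannr (0.981). Cdh19 (0.942), Kcna2 (0.932) and Gm10863 (0.921) were most like Sox10, and Col2a1 (0.862), Col9a2 (0.853) and Fgfrl1 (0.845) most like Sox9. The genes most like Sox4 were Mex3a (0.903), Pgbd5 (0.895) and 2610008E11Rik (0.893), and those most like Sox11 were Sbk1 (0.917), Cacng4 (0.910) and Tubb3 (0.905). Dyrk3 (0.867), Fam184b (0.864) and Espn (0.863) were most like Sox2, and Tmem132b (0.897), Csmd2 (0.891) and C1ql1 (0.886) most like Sox2ot. For Sox8 the first was its antisense partner 2810468N07Rik (0.8803), before Sapcd1 (0.835) and Glb1l2 (0.833), and for Sox6 the first was Gm45025 (0.835), on its opposite strand, before Tmem117 (0.770) and Dtna (0.705). Among the members themselves, Sox17 and Sox18 were most alike (0.959), followed by Sox4 with Sox11 (0.815) and Sox2 with Sox2ot (0.811). A correlation is no evidence that genes share a function or control.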

How the data were processed

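Single-cell 3′ libraries of E17.5 eye cups, 1 for each genotype, were processed by the authors with Cell Ranger 7.1.0 on mm10, and the deposited matrices hold raw UMI counts for each gene and barcode. Seurat 4.1.1 is also named in the processing notes. Whether introns were counted is not given in the sources used here. From these counts, a cell was kept if over 500 genes were found in it and mitochondrial genes gave less than 15% of its UMIs. The 5% of cells with the highest Scrublet score (scanpy 1.11.5) were removed from each library, because its own threshold called 1 and 0 cells. Cells were integrated and clustered in Seurat 5.3.0 (2000 variable genes without SOX genes, resolution 1.0). A cluster was named by the marker list of which it raised most genes (2-fold over the other cells, in 10% of its cells, at least 3 genes). The rule for the Isl1-led cluster was added after its values were seen.

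UMIs were summed over the cells of a class. Levels have exact Poisson intervals, ratios of sums exact conditional binomial intervals and shares of cells exact Clopper-Pearson intervals, all 95%, and all cover counting error only. With 1 library a genotype, no p-value was computed. The code was tested on simulated data. The members and lists were chosen with earlier results of these data known. All 10 members are named, with the 3 genes most like each, the highest and the lowest of each list, and any list gene past 2-fold. Other genes were named after their values were seen. Loci are from the GENCODE annotation of GRCm38. Clusterings, cell filters, scaling, free RNA and thinning were varied.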

Additional observations from a re-analysis of the deposited data

Results flagged for a closer look

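In the classes flagged here, Sox6 had log2 ratios of opposite sign, but the higher of these values rested on 1 cell. In white blood cell-like cells its log2 ratio of humdG to humWT was 1.29 (0.49 to 2.11), and in the Isl1-led cluster -2.28 (-2.96 to -1.65). The difference between these classes was not tested, since each genotype is 1 library. Elsewhere, Sox6 ratios also lay on both sides of 0. The ratio was 2.77 (2.47 to 3.08) in the unnamed cluster led by Hpse2 and Wif1, with 110 and 492 UMIs. In RPE-like cells it was -1.03 (-1.23 to -0.83), with 890 and 262 UMIs. Of the 35 humdG UMIs in white blood cell-like cells 31 came from 1 cell of 37303 UMIs, which also held 23 Sox17 and 5 Sox18 UMIs. Without the cell with most Sox6 UMIs in each library, Sox6 was at 7.68 CPM in humWT and 2.28 CPM in humdG, so that it was lower in humdG, as in the Isl1-led cluster. In the Isl1-led cluster Sox6 had 83 UMIs in 24 of 76 humWT cells and 28 UMIs in 13 of 160 humdG cells, 1 of which held 39.3% of them.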

How the results depend on the processing

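No paired analysis was possible because each genotype is 1 library and the labels give no replicate numbers shared between genotypes. No library could be left out either. Every alternative was planned except that of leaving out barcodes found in both libraries, which was chosen after seeing the data. Of 92 genotype ratios in leading classes recomputed under alternatives, 77 stayed within the counting interval of the value reported, and 29 of 45 differences along the retina stayed between the lowest and highest bound of both libraries. The leading class for these ratios was the one with the highest mean level over both libraries. For Sox2 and Sox2ot it was the Isl1-led cluster, which did not form under the other clusterings. Its ratios could not be recomputed there, apart from another cluster given that name in merged libraries. The number of pairs past 2-fold, 34, ranged from 24 (at least 50 UMIs) to 33 and 34. In each library 7 to 10 of the 10 members kept their leading class, with Sox2, Sox2ot and Sox6 as those that changed it. Among the genotype ratios in leading classes, none whose interval lay to one side of 0 changed its sign. Outside them, the ratios of Acan and Col2a1 did so when the unnamed cluster was added to the cartilage-like cells. That of Sox6 in white blood cell-like cells did so without the cell with most Sox6 UMIs.

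The log2 ratio of humdG to humWT in the leading class moved under 6 alternatives for Sox9 in cartilage-like cells, from 0.31 to 0.81 at resolution 0.5, 1.16 with libraries merged without integration, 0.93 with more than 200 genes per cell, 0.89 with no doublet removal, 0.47 in cells of at least 2000 UMIs and 0.59 with blood cell counts subtracted. For Sox4 it became 0.16 at resolution 0.5, 0.13 in merged libraries and 0.19 with no doublet removal, in place of 0.00. For Sox11 it became 0.14 at resolution 0.5, 0.14 with more than 200 genes and 0.19 with no doublet removal, in place of 0.06, and for Sox10 it became 0.037 with no doublet removal. In merged libraries it was -0.36 for Sox8 and 2.52 for Sox2ot, the latter in another cluster that the Isl1 rule then named. The Isl1-led cluster itself was not formed in any of the 5 other clusterings.

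The log2 difference of amacrine and horizontal-like over retinal progenitor-like cells, the mean over both libraries, kept its sign for all 5 genes under every alternative. At resolution 0.5 it was -1.27 for Sox2, 2.61 for Sox4 and 2.10 for Sox11, and in merged libraries -1.38 for Sox2 and 2.07 for Sox11. With SOX genes kept in the clustering it was 2.92 for Sox4 and 2.96 for Sox11, and with more than 200 genes per cell 2.88 for Sox4. With no doublet removal it was -1.28 for Sox2, 2.51 for Sox4 and 1.98 for Sox11. With blood cell counts subtracted it was -3.22 for Sox2, -4.60 for Sox8, -3.81 for Sox9, 3.19 for Sox4 and 2.61 for Sox11. The cause of these moves was not tested, except that at resolution 0.5, in merged libraries and with no doublet removal the amacrine and horizontal-like class took in the cells of the Isl1-led cluster.

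Shares of cells with a UMI depend on depth. After thinning to 1000 UMIs, shares in humWT and humdG are given for the class with the highest mean level over both libraries. In the Isl1-led cluster they were 3.95% and 16.9% for Sox2 and 18.4% and 38.1% for Sox2ot. They were 47.2% and 52.5% for Sox4, and 12.0% and 7.69% for Sox6 in neural crest and glia-like cells. For Sox8 they were 10.97% and 6.03%, for Sox9 49.8% and 36.8%, and for Sox10 28.0% and 35.9%. For Sox11 they were 35.1% and 43.2%, for Sox17 4.69% and 3.12%, and for Sox18 13.9% and 8.83%. Retinal progenitor-like cells, first for Sox2 in humWT, had shares of 10.7% and 11.6%. For Sox6, RPE-like cells, first in humWT, had 11.2% and 4.52%, and muscle-like cells, first in humdG, 10.7% and 10.4%.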

Other observations

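In retinal progenitor-like cells UMIs of Sox8 and Sox9 were found together in 475 of 1196 humWT and 626 of 2229 humdG cells, Sox8 alone in 203 and 336, and Sox9 alone in 348 and 762. Sox2 and Sox9 were found together in 505 and 961 of these cells, and neither in 184 and 414.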
